A study of Mus musculus with 14 samples.

Results

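Oxidative phosphorylation is carried out by 5 protein complexes of the inner mitochondrial membrane, and their nuclear-encoded genes were followed here through sorted mouse macrophages and monocytes after traumatic brain injury. The members were all array probes whose accession led to a gene symbol of the Nduf, Sdh, Uqcr, Cyc1, Cox4 to Cox8 or Atp5 series, after predicted genes and pseudogenes had been dropped. This gave 83 genes on 102 probes, out of 17178 gene symbols on the array. Of the 83 genes, 35 were named for complex I, 4 for complex II, 9 for complex III, 18 for complex IV and 17 for complex V. Enough usable spots and signal for the statistical test were left for 74 of them.

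The study measured gene expression on 14 one-colour microarrays in 4 groups, all from male mice of the YARG strain, 12 to 16 weeks old, in which a fluorescent protein reports transcription of the gene for arginase 1 (Arg1). Arg1+ brain macrophages (4 arrays) and Arg1- brain macrophages (4 arrays) were sorted from brains 1 day after controlled cortical impact, a piston injury to the exposed cortex that models traumatic brain injury (TBI). Blood monocytes were sorted from mice 1 day after the same injury (post-TBI, 3 arrays) and from normal mice (3 arrays). None of the 14 arrays is labelled as sham-operated, so surgery and impact cannot be told apart in the blood comparison, and normal mice had no surgery. The brains were perfused and digested, and cells were sorted with antibodies to CD45, CD11b, Ly6G and F4/80, so microglia and infiltrating macrophages can both be in the brain groups. The labels do not say that replicates are separate animals, so p-values reflect only how far these samples spread, part of which may be technical. These are bulk samples of sorted cells, in which fewer cells of a type and less RNA per cell cannot be told apart.

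Complex I (NADH dehydrogenase) and complex II (succinate dehydrogenase) pass electrons from NADH and succinate to ubiquinone, complex III passes them to cytochrome c, and complex IV (cytochrome c oxidase) passes them to oxygen. Complexes I, III and IV pump protons, and complex V (ATP synthase) uses the proton gradient to make ATP. In macrophages, inflammatory activation is known to favour glycolysis over respiration and alternative activation, for which Arg1 is a classical marker in mice, to favour respiration. Nuclear respiratory factor 1 (NRF1), GA-binding protein (GABP) and YY1 are known regulators of these nuclear genes.

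A promoter window, the 250 bases before and 50 bases after the transcription start in RefSeq on GRCm38.p6, was available for 67 of the 83 members (72 windows). The 3 motifs searched, on both strands, were GCGCANGCG for NRF1, CCGGAAG for the GABPA subunit of GABP and AAGATGGCG for YY1, and matches on the 2 strands can overlap. The NRF1 motif was in 27.8% of member windows and in 6.25% of all 32851 windows, the GABPA motif in 23.6% and 8.86%, and the YY1 motif in 9.72% and 1.4%. The median GC content was 57.5% in member windows and 52.7% in all windows. To show what such a window looks like, 3 members with a difference between Arg1+ brain macrophages and blood and a motif match are printed first, and 3 of the members with the largest differences and no match after them, each as the 250 bases before the start with matched letters in capitals. Ndufs5 lies at chr4:123718187-123718436 on the minus strand, Cox6a1 at chr5:115348959-115349208 on the minus strand and Ndufb6 at chr4:40279422-40279671 on the minus strand. Cox7a1 lies at chr7:30183921-30184170 on the plus strand, Atp5g1 at chr11:96075632-96075881 on the minus strand and Cox7a2l at chr17:83514334-83514583 on the minus strand.
Ndufs5: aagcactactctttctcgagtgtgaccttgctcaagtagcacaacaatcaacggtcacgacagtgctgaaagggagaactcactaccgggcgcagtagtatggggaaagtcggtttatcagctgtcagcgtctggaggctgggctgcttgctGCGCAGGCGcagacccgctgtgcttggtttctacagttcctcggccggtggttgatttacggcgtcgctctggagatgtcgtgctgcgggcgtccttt
Cox6a1: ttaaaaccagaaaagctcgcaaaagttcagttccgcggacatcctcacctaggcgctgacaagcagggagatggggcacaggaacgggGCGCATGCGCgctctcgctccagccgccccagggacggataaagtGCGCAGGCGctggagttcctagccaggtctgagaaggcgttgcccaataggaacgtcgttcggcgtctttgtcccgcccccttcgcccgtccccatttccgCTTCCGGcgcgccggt
Ndufb6: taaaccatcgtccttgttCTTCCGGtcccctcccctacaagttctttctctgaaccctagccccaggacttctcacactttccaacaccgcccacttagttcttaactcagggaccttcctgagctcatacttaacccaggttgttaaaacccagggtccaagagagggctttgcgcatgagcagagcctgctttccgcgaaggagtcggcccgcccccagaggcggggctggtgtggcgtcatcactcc
Cox7a1: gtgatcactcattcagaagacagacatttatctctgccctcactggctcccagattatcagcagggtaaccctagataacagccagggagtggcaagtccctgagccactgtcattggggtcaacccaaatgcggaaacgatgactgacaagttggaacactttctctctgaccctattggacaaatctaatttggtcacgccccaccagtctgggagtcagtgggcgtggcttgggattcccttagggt
Atp5g1: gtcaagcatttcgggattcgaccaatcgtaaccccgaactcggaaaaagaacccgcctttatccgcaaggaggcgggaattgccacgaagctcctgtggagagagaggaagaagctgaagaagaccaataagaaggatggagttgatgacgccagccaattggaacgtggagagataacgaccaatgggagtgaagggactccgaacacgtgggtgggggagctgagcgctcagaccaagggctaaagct
Cox7a2l: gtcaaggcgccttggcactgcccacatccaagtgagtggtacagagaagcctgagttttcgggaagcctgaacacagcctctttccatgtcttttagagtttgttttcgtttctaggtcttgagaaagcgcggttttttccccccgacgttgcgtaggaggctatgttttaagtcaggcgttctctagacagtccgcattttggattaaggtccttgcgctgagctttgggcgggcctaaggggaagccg
In Ndufs5 the capitals mark 1 NRF1 match, 98 bases before the start, and in Ndufb6 1 GABPA match on the reverse strand, 232 bases before it. In Cox6a1 they mark NRF1 matches 162 and 117 bases before the start, another on the reverse strand at 161, and a GABPA match on the reverse strand at 16. No window was listed for Cox4i2, Cyc1 or Uqcrb. A match is a run of letters and not a binding site, and no binding was measured.

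Levels are given as log2 of the processed signal over the 75th percentile of the same array, so 0 is the 75th percentile, and a level is compared only between arrays for one probe. The labelled sort was checked by Arg1 itself, which read 6.82, 6.20 and 6.21 in Arg1+ brain macrophages (the spot of replicate 2 was an outlier and was dropped), 2.12 to 4.20 in Arg1- brain macrophages and -3.90 to -3.13 in blood. All 9 monocyte and macrophage markers on the array were well above background on every array. Markers of other cells differed between the groups. The summed signal of 3 red cell genes, in multiples of the 75th percentile, was 517.2 to 1768 in blood and 39.55 to 92.61 in the brain groups. That of 6 platelet genes was 106.1 to 140.8 in Arg1+ brain macrophages, 18.89 to 29.04 in Arg1- brain macrophages and 5.725 to 30.15 in blood, and that of 9 microglia genes was 52.51 to 82.15, 43.06 to 58.79 and 21.78 to 26.65. That of 8 dendritic cell genes was 2.595 to 3.631 in Arg1+ brain macrophages, 10.32 to 15.34 in Arg1- brain macrophages and 8.653 to 16.28 in blood, and 7 of the 8 were lower in Arg1+ cells than in post-TBI blood. That of 11 neutrophil genes was 7.443 to 16.33 in Arg1+ and 32.79 to 143.0 in Arg1- brain macrophages, 10.75 to 88.04 in post-TBI blood and 26.72 to 216.1 in normal blood. The highest sum on any array was 3.702 for 10 T and natural killer cell genes and 5.115 for 6 B cell genes, both in blood, 3.679 for neuron and 5.616 for endothelium genes, both in Arg1+ cells, 1.729 for astrocyte genes in Arg1+ cells and 30.75 for oligodendrocyte genes in blood. In the platelet list 5 genes were tested. Against post-TBI blood 3 of them were lower in Arg1+ cells and none higher, and against Arg1- cells 1 was higher. The platelet sum therefore does not describe the whole list. The part of these other cell types in the results that follow was not tested.

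Before the groups are compared, 2 arrays have to be named, because the members moved together in them. Over the 74 tested members, the median deviation of an array from the mean of all arrays was 0.68 in Arg1+ replicate 3 and -0.55 in post-TBI blood replicate 4. The other 12 arrays lay between -0.29 and 0.29. Both arrays are on the same slide, slide 2, which also holds Arg1- replicate 1 (-0.23) and normal blood replicate 4 (-0.29), the lowest of their groups. Counts of called members in the comparisons with post-TBI blood are therefore given with and without these arrays.

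**Figure D1:**
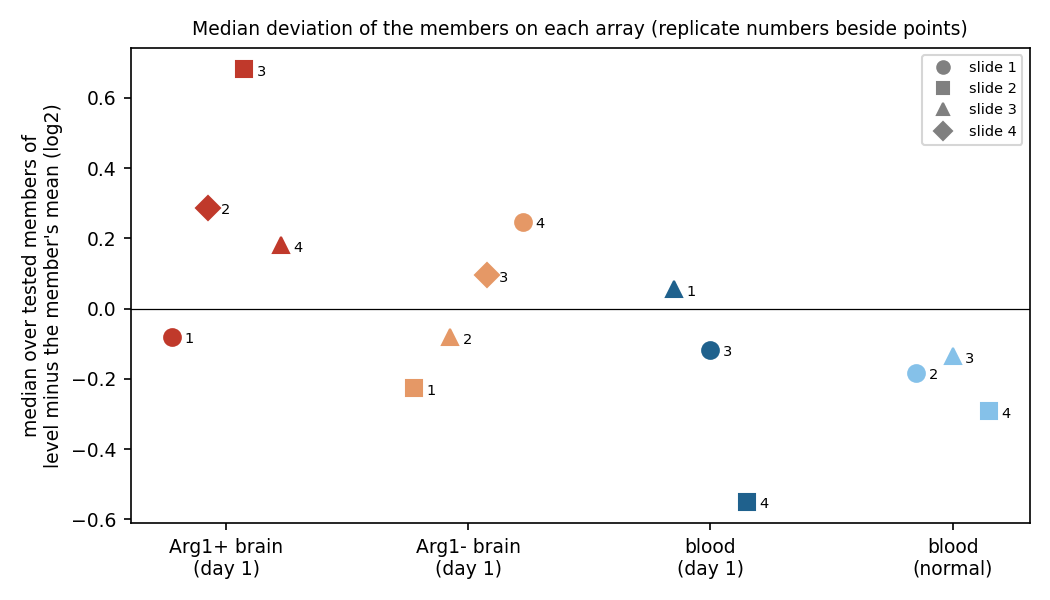
Median deviation of the 74 tested members in each of the 14 arrays (y axis, log2 units, each member minus its mean over all arrays), by group, with a marker shape for each slide. Arg1+ replicate 3 at 0.68 and post-TBI blood replicate 4 at -0.55, both on slide 2, lie apart from the other arrays.

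Arg1+ and Arg1- brain macrophages differed in 1 of the 74 members by limma at an adjusted p under 0.05. Cox7a1, the heart and muscle isoform of a small complex IV subunit, was higher in Arg1+ cells. No member was lower, and 12 members had an unadjusted p under 0.05, 10 of them with the higher level in Arg1+ cells. Among all 21972 genes tested, 2.14% were called higher and 2.90% lower in Arg1+ cells, so the share of members called (1.35% higher) was near or under the background.

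Cox7a1 read 0.36, 0.17, 0.86 and 0.36 in Arg1+ brain macrophages and -0.63, -0.15, -0.91 and -0.45 in Arg1- brain macrophages. It read -1.07, -1.62 and -1.15 in post-TBI blood and -1.21, -1.27 and -1.24 in normal blood. Every Arg1+ array was above every Arg1- array, and every Arg1- array was above every blood array. The difference between the brain groups was 0.97 ± 0.21 (SE), a 1.96-fold difference, with a limma adjusted p of 0.013, and within slides it was 0.81, 1.49, 0.51 and 1.08. It was past the threshold in 25 of 27 alternative analyses and missed it without Arg1- replicate 3 or without Arg1+ replicate 3 (adjusted p 0.0512 to 0.0544).

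A further 3 members had brain groups that did not overlap, with Arg1+ above Arg1-, but did not pass the adjusted test. Atp5g1, 1 of 3 genes for the c-ring of ATP synthase, read 2.74, 2.59, 3.17 and 2.81 in Arg1+ and 1.76, 2.03, 2.21 and 2.57 in Arg1- cells (difference 0.69 ± 0.19, adjusted p 0.0545). Cyc1, the cytochrome c1 of complex III, read 2.73, 2.78, 3.1 and 3.0 against 2.21, 2.37, 2.39 and 2.63 (0.50 ± 0.14, adjusted p 0.0581). Ndufs5, an accessory subunit of complex I, read 2.20, 2.22, 3.02 and 2.32 against 1.43, 1.73, 1.74 and 2.19 (0.67 ± 0.21, adjusted p 0.0918). The gap between the groups was narrow in all 3, and narrowest in Ndufs5 (2.20 against 2.19). Atp5g1 passed in 5 of 27 alternatives, Cyc1 in 3 and Ndufs5 in none. Groups without overlap were counted for 4 members with Arg1+ higher and 1 with Arg1+ lower, where 7.49% and 7.37% of all genes had such groups.

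At the other end, Cox7a2l, a factor that joins complexes III and IV into supercomplexes, read -0.66, -0.19, -0.60 and -0.39 in Arg1+ and -0.33, 0.04, 0.83 and 0.18 in Arg1- cells. The difference of -0.64 ± 0.23 had an adjusted p of 0.132, and 0.0405 with the slide as a block. Cox6b2, the testis isoform of a complex IV subunit, read -0.56, -0.43, -0.14 and 0.18 against 0.31, 0.28, 0.31 and 0.20, so the groups did not overlap, but the difference of -0.51 ± 0.22 did not pass (adjusted p 0.231). Most other members had small positive differences. The median over members was 0.21, with quartiles of 0.10 and 0.32, and 62 of 74 differences were above 0, while over all genes the median was 0.00 with quartiles of -0.24 and 0.22. The median was 0.25 in complex I, 0.23 in complex II, 0.18 in complex III, 0.15 in complex IV and 0.19 in complex V.

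This shared shift did not hold within every slide. The median over members was -0.34 on slide 1, with 9 of 73 members above 0, 0.84 on slide 2, 0.26 on slide 3 and 0.17 on slide 4. Without Arg1+ replicate 3 it was 0.08, and under quantile normalization it was 0.06, with 43 of 74 above 0. No joint difference of the members between the brain groups is therefore reported.

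Blood monocytes after injury and normal blood monocytes differed in none of the 74 members by limma. The background was also small, with 0.109% of all genes called higher and 0.0410% lower after injury. At an unadjusted p under 0.05 there were 2 members. Ndufa4, named for complex I but found as a subunit of complex IV, read 2.16, 2.00 and 2.25 in post-TBI blood and 1.55, 1.90 and 1.31 in normal blood (0.55 ± 0.22, adjusted p 0.67). Uqcrh, the hinge protein of complex III, read 4.80 and 3.49 in post-TBI blood (the spot of replicate 1 was an outlier and was dropped) and 5.22, 5.26 and 5.19 in normal blood (-1.08 ± 0.35, adjusted p 0.486). Both pairs of groups did not overlap, but the Uqcrh value leaned on post-TBI replicate 4, with within-slide differences of -0.42 on slide 1 and -1.70 on slide 2. Over all members, groups without overlap were found for 8 with post-TBI blood higher and 3 with it lower. That is 10.8% and 4.05%, where 4.49% and 4.77% of all genes had such groups, a difference that was not tested. The median over members was 0.04, with 42 of 74 above 0, and it ranged from -0.09 to 0.17 when 1 array was left out at a time.

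Arg1+ brain macrophages differed from post-TBI blood monocytes in 30 of the 74 members by limma, 25 higher and 5 lower in the brain cells. That is 33.8% and 6.76% of the members, where 19.9% of all genes were called higher and 20.0% lower. The higher members were in all 5 complexes, with 10 of 33 in complex I, 1 of 3 in complex II, 4 of 9 in complex III, 5 of 13 in complex IV and 5 of 16 in complex V. The share of higher calls varied with the normalization and depended on the 2 arrays named above. With both left out, an analysis chosen after seeing the data, 11 members were higher and 6 lower, or 14.9% and 8.11%, where 17.0% and 18.4% of all genes were, so the excess of higher members was not seen there. Leaving out post-TBI replicate 4 alone left 13 higher and 4 lower of 74, where 4091 and 4337 of 21972 genes were. Quantile normalization gave 15 higher and 7 lower, or 20.3% and 9.46%, where 18.3% and 20.6% of all genes were. In both settings the share of higher members was near that of all genes. The median difference of 0.47 (all genes -0.03) was 0.05 on slide 1, 1.07 on slide 2 and 0.08 on slide 3, and 0.14 without both arrays. Single members are therefore described with their behaviour across analyses, and the members named first were past the threshold in all 27 alternatives.

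**Figure D2:**
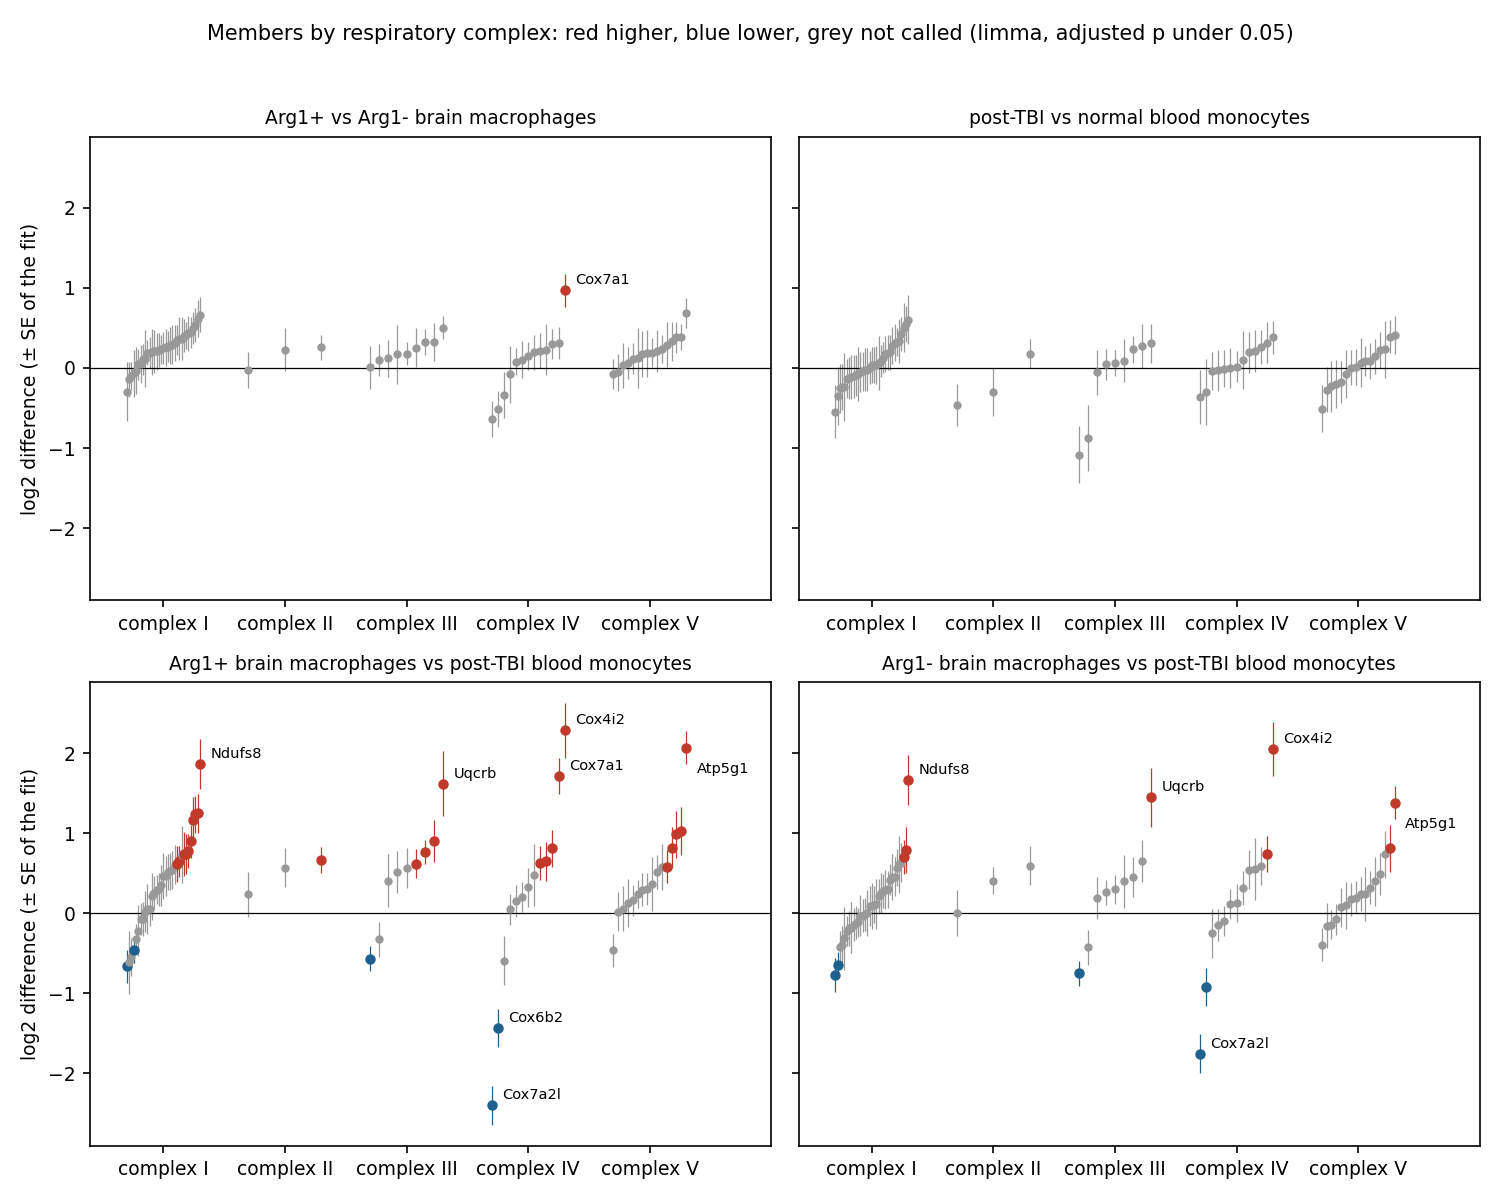
Log2 difference ± SE of each of the 74 tested members in the 4 comparisons (panels), grouped by complex, with members called higher in red, called lower in blue and not called in grey. In Arg1+ brain macrophages against post-TBI blood, 25 members are red and 5 blue, and in the blood comparison none is coloured.

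The 4 largest differences among the complex IV genes were those of Cox7a2l, Cox4i2, Cox7a1 and Cox6b2, and all 4 passed. Of the 5 tested isoforms of restricted expression, 2 were higher and 1 lower, with and without both arrays. Of all genes, 19.9% were higher and 20.0% lower, and without both arrays 3728 and 4038 of 21972 were. With so few genes no excess is read from these counts. Cox4i2, the alternative form of subunit 4 known from lung and from hypoxia, read -0.35, -1.67, -0.39 and -0.44 in Arg1+ brain macrophages and -2.76, -3.41 and -2.82 in post-TBI blood. All Arg1+ arrays were above all blood arrays, with Arg1+ replicate 2 well below its group. The difference of 2.28 ± 0.34 (4.87-fold, adjusted p 7.36e-05) ranged from 1.29 to 2.60 over the alternatives. In normal blood it read -3.24, -2.82 and -3.24 and was well above background on 2 of 3 arrays. Cox7a1, with the values given above, was higher by 1.71 ± 0.23 (3.28-fold, adjusted p 2.35e-05).

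Cox7a2l went the other way. It read 1.86, 2.06 and 1.89 in post-TBI blood and 1.63, 2.14 and 1.46 in normal blood, against -0.66 to -0.19 in Arg1+ and -0.33 to 0.83 in Arg1- brain macrophages. Every blood array was above every brain array. The difference between Arg1+ brain macrophages and post-TBI blood was -2.40 ± 0.24 (5.27-fold lower, adjusted p 1.79e-06), and within slides it was -2.72, -2.49 and -2.26. Cox6b2 was lower by the same test, with 1.77, 1.23 and 0.60 in post-TBI blood and 1.11, 1.24 and 1.33 in normal blood (-1.44 ± 0.24, adjusted p 0.000196). Cox6a2 (0.48 ± 0.38) and Cox8b (-0.59 ± 0.31), both heart and muscle isoforms, did not pass. Cox6a2 passed with the slide as a block (adjusted p 0.0144, and 0.01 in Arg1- cells). Cox8b was well above background on 1 of 4 Arg1+ arrays and passed without Arg1+ replicate 4 (adjusted p 0.00229).

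Of the 7 tested complex IV subunits of wide expression, 3 were higher and none lower, where 19.9% and 20.0% of all genes were. None of the 7 passed without both arrays named above. Cox6a1 read 4.83, 5.59, 6.13 and 5.58 in Arg1+ brain macrophages and 4.80, 4.84 and 4.52 in post-TBI blood, so the groups overlapped in 1 array (0.81 ± 0.23, adjusted p 0.0122). It missed the threshold without both arrays named above and when the 2 groups were fitted alone (adjusted p 0.0661 to 0.086). Cox7a2 (0.63 ± 0.21, adjusted p 0.0276) and Cox6b1 (0.65 ± 0.24, adjusted p 0.0458) were also higher, in 16 and 10 of 27 alternatives. Cox5a (0.16 ± 0.20) and Cox8a (0.20 ± 0.19) did not pass. Cox8a read 5.19 to 5.38 in post-TBI blood and 5.01 to 5.88 in Arg1+ brain macrophages, and the groups overlapped.

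In complex V, Atp5g1 was the member with the largest difference. It read 1.08, 0.76 and 0.44 in post-TBI blood and 0.66, 0.82 and 0.54 in normal blood, all under the lowest Arg1- array (1.76) and the lowest Arg1+ array (2.59). The difference to Arg1+ brain macrophages was 2.07 ± 0.21 (4.20-fold, adjusted p 1.66e-06). The other c-ring genes differed less, with 0.58 ± 0.21 for Atp5g3 (adjusted p 0.0369) and 0.30 ± 0.20 for Atp5g2 (adjusted p 0.271). Without both arrays that stood apart, Atp5g1 was the 1 c-ring gene called. Atp5b, the catalytic beta subunit, read 6.04, 6.73 and 6.62 in Arg1+ brain macrophages (the spot of replicate 3 was dropped) and 5.76, 5.80 and 4.88 in post-TBI blood. Its difference of 0.98 ± 0.29 (adjusted p 0.016) passed in 19 of 27 alternatives and not without Arg1+ replicate 2, Arg1+ replicate 4 or post-TBI replicate 4. It also missed under quantile normalization, with or without normexp. The call was lost as well with the mean of all kept probes and when the 2 groups were fitted alone. Atp5c1, the gamma subunit, had the lowest difference of the complex (-0.46 ± 0.20, adjusted p 0.0867).

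**Figure D3:**
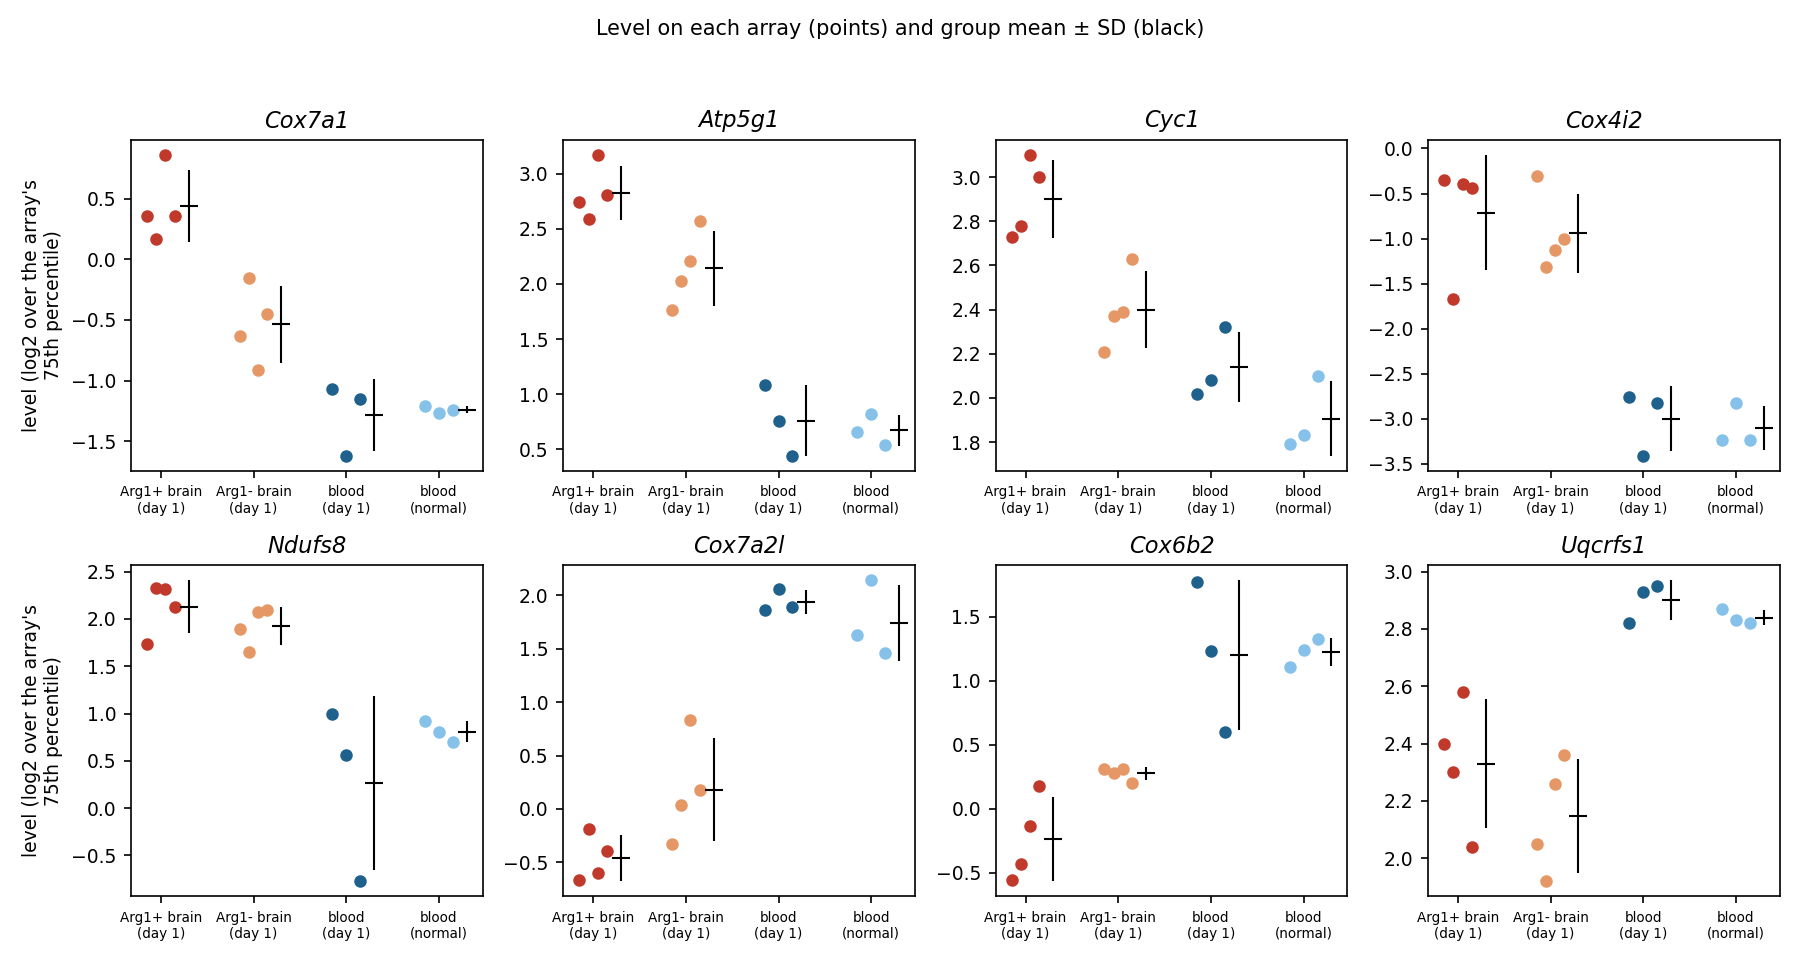
Levels of 8 members on each array (y axis, log2 of processed signal over the array's 75th percentile), with 1 point per array and the group mean ± SD in black, for Arg1+ and Arg1- brain macrophages (4 arrays each) and post-TBI and normal blood monocytes (3 arrays each). The means of Atp5g1 and Cox7a1 are highest in Arg1+ cells, lower in Arg1- cells and lowest in blood, and Cox7a2l is higher on every blood array than on any brain array.

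In complex I, subunits of the electron-carrying core differed in opposite directions. Ndufs8, an iron-sulfur subunit of the core, read 1.73, 2.33, 2.32 and 2.13 in Arg1+ brain macrophages, 1.00, 0.56 and -0.77 in post-TBI blood and 0.92, 0.80 and 0.70 in normal blood. The difference to post-TBI blood was 1.87 ± 0.31 (3.64-fold, adjusted p 0.000197), and its size rests partly on post-TBI replicate 4, the lowest array (1.28 to 2.23 over the alternatives). Ndufs1, another iron-sulfur subunit of the core, read 1.15, 1.58, 1.55 and 1.57 against 1.85, 1.88 and 2.02. It was lower in the brain cells (-0.45 ± 0.17, adjusted p 0.0408) and passed in 15 of 27 alternatives, with the call lost when Arg1+ replicate 1, 3 or 4 or any 1 of the post-TBI arrays was left out. The call was also lost under normexp with quantile normalization and in the authors' deposited log2 table. So it was without an intensity trend and when the 2 groups were fitted alone. Of the 7 core subunits on the array 1 was higher and 1 lower, and of 25 tested accessory subunits 9 (36.0%) were higher and none lower, where 19.9% and 20.0% of all genes were. Without both arrays that stood apart 1 core subunit was higher and none lower. Of the 25 accessory subunits 5 were higher and 2 lower there, where 3728 and 4038 of 21972 genes were. The accessory share of higher calls was therefore near that of all genes.

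The accessory subunits with the largest differences were Ndufb6, Ndufs5 and Ndufa12. Ndufb6 read 3.97, 4.18, 4.74 and 4.05 in Arg1+ brain macrophages and 3.37, 3.06 and 2.53 in post-TBI blood (1.25 ± 0.25, adjusted p 0.000904). Ndufs5 read 1.45, 1.31 and 0.85 in post-TBI blood (1.24 ± 0.23, adjusted p 0.000528), under all 4 Arg1+ values given above. Ndufa12 read 2.94, 3.38, 3.96 and 3.25 against 1.79, 1.86 and 3.02, so the groups overlapped through post-TBI replicate 4 (1.16 ± 0.29, adjusted p 0.00466). Ndufv3, of the NADH-oxidising arm, was higher by 0.90 ± 0.21 (adjusted p 0.00299), although not all of its probes had the same sign and the mean of all probes gave 0.37 (adjusted p 0.0932). Ndufa4 was lower, with 1.06, 1.65, 1.93 and 1.25 against 2.16, 2.00 and 2.25 (-0.66 ± 0.21, adjusted p 0.019). It passed in 23 of 27 alternatives, but not without Arg1+ replicate 1 or 4 or post-TBI replicate 4, or when the 2 groups were fitted alone. Ndufb5 had the lowest accessory difference and did not pass (-0.61 ± 0.40, adjusted p 0.248). It read -0.92, 0.13, 0.42 and -0.15 in Arg1+ brain macrophages against 1.28, 0.86 and -0.70 in post-TBI blood. Without post-TBI replicate 4, the low array, it was lower (adjusted p 0.00753, and 0.0417 in Arg1- cells), and without both arrays that stood apart its difference was -1.39 (adjusted p 0.00336).

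Complex III also split within its catalytic core. Cyc1 was higher in Arg1+ brain macrophages than in post-TBI blood, which read 2.02, 2.08 and 2.32 (0.76 ± 0.15, adjusted p 0.00104). Uqcrfs1, the Rieske iron-sulfur protein, was lower, with 2.40, 2.30, 2.58 and 2.04 in Arg1+ brain macrophages and 2.82, 2.93 and 2.95 in post-TBI blood (-0.57 ± 0.15, adjusted p 0.008). Its normal blood values of 2.82 to 2.87 were also above all Arg1+ arrays. Both genes passed in all 27 alternatives. Uqcrb, a small subunit, had the largest difference of the complex (1.62 ± 0.41, adjusted p 0.00975) but rests on 2 arrays a group, because 2 Arg1+ spots and 1 post-TBI spot were outliers and were dropped. It read 2.88 and 3.88 in Arg1+ brain macrophages and 2.35 and 1.17 in post-TBI blood, and without Arg1+ replicate 3 or post-TBI replicate 4 it did not pass. It also missed with no filter on dim probes and when the 2 groups were fitted alone.

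Of the 4 succinate dehydrogenase genes, Sdhc, a membrane anchor, was higher in Arg1+ brain macrophages. It read 1.03, 1.20, 1.36 and 1.51 against 0.61, 0.64 and 0.58 in post-TBI blood (0.67 ± 0.17, adjusted p 0.00528) and passed in all 27 alternatives. Sdha, the flavoprotein, read 3.21, 3.93, 3.68 and 3.75 against 3.47, 3.40 and 2.34 (0.57 ± 0.24, adjusted p 0.0791), and its 2 probes differed in sign. Sdhd, the other anchor, read 0.59, 0.84, 0.53 and 0.47 against 1.28, 0.03 and -0.19 (0.24 ± 0.28, adjusted p 0.566). Sdhb, the iron-sulfur subunit, had too many outlier spots to be tested as the others were. With those spots kept it read 3.64, 4.18, 4.54 and 4.01 against 3.30, 3.52 and 3.28, without overlap (0.73 ± 0.21, adjusted p 0.0108).

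The remaining called members were higher in Arg1+ brain macrophages by 0.61 to 1.03. They were Ndufa2, Ndufa9, Ndufb7, Ndufc1, Ndufs6, Uqcrc1, Uqcrq, Atp5j2 and Atp5k, and are named to account for the count. Without both arrays that stood apart, complex III and complex V had 1 higher member each, Cyc1 and Atp5g1. Uqcrc1, Uqcrq, Atp5j2 and Atp5k were therefore not called higher there. Complex I had 6 higher members there, among them Ndufs8, Ndufb6, Ndufs5, Ndufa12 and Ndufv3. Most of the complex I members listed here were therefore not called higher either. Over all members, groups without overlap were found for 20 with Arg1+ higher and 6 with Arg1+ lower, which is 27.0% and 8.11% of the members, where 19.2% and 20.4% of all genes had such groups. Without both arrays that stood apart they were 23 and 16 members (31.1% and 21.6%), where 25.2% and 29.7% of all genes had such groups. Of the 9 members that were not tested, Cox8c and Cox7b2 were well above background on no array. The other 7, Cox4i1, Cox5b, Cox6c, Sdhb, Ndufa3, Ndufa6 and Atp5e, were well above background on all 14 arrays but had too many outlier spots. With those spots kept, Cox4i1, the main form of subunit 4, read 5.37, 5.73, 6.04 and 5.72 against 5.51, 5.04 and 3.36 (1.08 ± 0.38, adjusted p 0.0355), and the groups overlapped.

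The motif counts of the promoter windows can be set beside these calls. Of 19 higher members with a promoter window, 6 (31.6%) held the NRF1 motif, 6 (31.6%) the GABPA motif and 4 (21.1%) the YY1 motif. Of 38 tested members with a window that were not called, 12 (31.6%), 9 (23.7%) and 3 (7.89%) did. These counts are descriptions, and the difference in the YY1 motif was not tested.

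Arg1- brain macrophages differed from post-TBI blood in 13 of the 74 members by limma, 8 higher and 5 lower. That is 10.8% and 6.76% of the members, where 17.0% of all genes were called higher and 16.4% lower, so the share of members was under the background in both directions. The higher count turned on post-TBI arrays. Without replicate 1 it was 14 (18.9%, where 17.7% of all genes were higher). Without replicate 4 it was 5, with 6 lower, where 3387 of 21972 genes were higher and 3336 lower. Leaving out both arrays that stood apart gave 7 higher and 6 lower, where 3385 of 21972 genes were higher and 3303 lower. In these last 2 settings the member shares were under those of all genes in both directions. This comparison shares the post-TBI arrays with the one before, so the values of both are given side by side and their likeness is not a result. Cox4i2 differed by 2.06 ± 0.34 here (adjusted p 0.000269) and 2.28 in Arg1+ cells, Ndufs8 by 1.66 (adjusted p 0.000724) and 1.87, and Atp5g1 by 1.38 (adjusted p 0.000125) and 2.07. Cox7a1 differed by 0.74 (adjusted p 0.0192) and 1.71, Uqcrb by 1.45 (adjusted p 0.0133) and 1.62, Ndufv3 by 0.70 (adjusted p 0.0168) and 0.90, Atp5b by 0.81 (adjusted p 0.0477) and 0.98, and Ndufa12 by 0.79 (adjusted p 0.0451) and 1.16. Atp5b passed in 9 and Ndufa12 in 13 of 27 alternatives here. Leaving out Arg1- replicate 2 or post-TBI replicate 3 ended the call of Cox7a1, leaving out post-TBI replicate 4 that of Uqcrb, and leaving out post-TBI replicate 3 or 4 that of Ndufv3. Cox7a1 also missed when the 2 groups were fitted alone, and Uqcrb with no filter on dim probes or with outlier spots kept. The 3 probes of Ndufv3 read -0.30, 0.70 and 0.27 here, and with their mean its difference was 0.22 (adjusted p 0.339).

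The 5 members lower in Arg1- brain macrophages were Cox7a2l (-1.76 here and -2.40 in Arg1+ cells, adjusted p 5.77e-05 here), Cox6b2 (-0.92 and -1.44, 0.00748), Ndufa4 (-0.77 and -0.66, 0.01), Uqcrfs1 (-0.75 and -0.57, 0.00153) and Ndufs1 (-0.65 and -0.45, 0.00746). All 5 passed here in all 27 alternatives. Their Arg1- values were -0.33 to 0.83 for Cox7a2l, 0.20 to 0.31 for Cox6b2, 1.10 to 1.53 for Ndufa4, 1.92 to 2.36 for Uqcrfs1 and 1.04 to 1.45 for Ndufs1, and no range overlapped the post-TBI values. Over all members, groups without overlap were found for 13 with Arg1- higher and 8 with Arg1- lower (17.6% and 10.8%). Of all genes, 18.9% and 18% had such groups. The median over members was 0.19 (all genes -0.02), with 0.37 on slide 1, 0.26 on slide 2 and -0.18 on slide 3, and 49 of 74 members were above 0. Without post-TBI replicate 4 the median was 0.06, with 41 of 74 above 0. Whether Arg1+ and Arg1- cells differ is the direct comparison given first, in which Cox7a1 passed.

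Other gene lists around respiration were set beside the members, by their counts and medians and with no test of the lists. Of all genes, 19.9% were higher and 20.0% lower in Arg1+ brain macrophages than in post-TBI blood (median -0.03). In Arg1+ brain macrophages against post-TBI blood, 17 of 20 tested glycolysis genes were higher and 1 lower (median 1.89), with Pfkfb3, which raises the activator of phosphofructokinase, at 3.44 ± 0.20 (adjusted p 3.46e-09). Slc16a1, a lactate transporter, was higher by 3.34 ± 0.31, and Slc2a3, a glucose transporter, was the 1 lower gene (-2.98 ± 0.53). Slc16a1 was well above background on 2 of 3 post-TBI arrays, at -3.32, -2.57 and -3.47, so the size of its difference is uncertain. Slc2a3 read -0.05, 0.59 and 2.25 in post-TBI blood, so its size rests partly on post-TBI replicate 4. Of 78 mitochondrial ribosome genes 36 were higher and 2 lower (median 0.54), and of 67 cytosolic ribosome genes 4 were higher and 11 lower (median -0.22). Of 39 assembly factors for the complexes 8 were higher and 4 lower (median 0.11), of 19 tricarboxylic acid cycle genes 1 and 2 (0.11), of 18 regulators of mitochondrial biogenesis 4 and 3 (0.05), and of 22 carriers, porins and electron carriers 6 and 0 (0.08). The mitochondrial ribosome list, at a median of 0.54, lay nearest to the members (0.47), and the glycolysis list far above them. This order holds for the medians over all arrays. Without the arrays that stood apart the member median was lower. Counts and medians of the other lists are not given without those arrays, so the order there is not known.

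**Figure D4:**
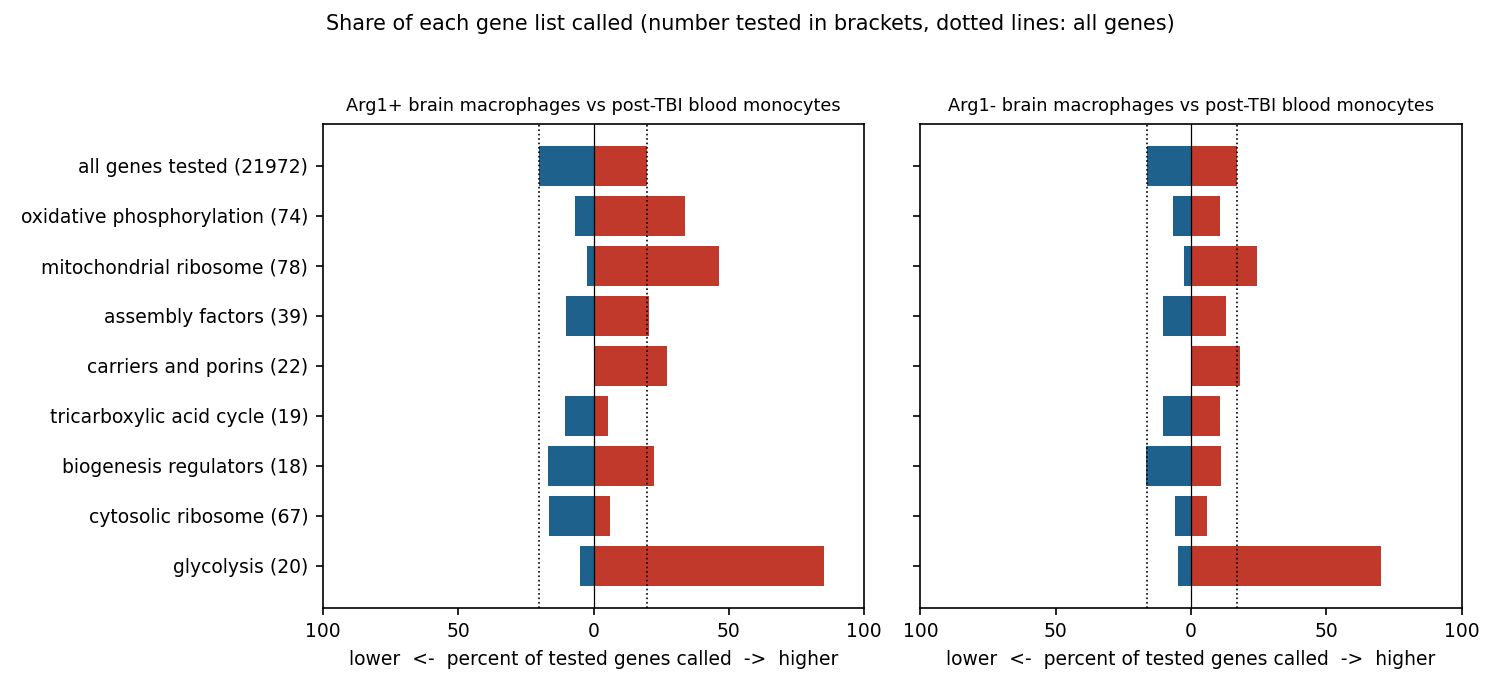
Percent of the tested genes of each list called higher or lower in brain macrophages than in post-TBI blood monocytes (limma adjusted p under 0.05), for Arg1+ and Arg1- cells, with dotted lines for all genes tested. In Arg1+ cells 33.8% of the members were higher against 19.9% of all genes, and 17 of 20 glycolysis genes were higher.

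Single genes of these lists differed from post-TBI blood in both brain groups. Coa7, an assembly factor of complex IV, was higher by 2.23 ± 0.30 in Arg1+ cells (adjusted p 2.62e-05) and 1.57 in Arg1- cells, and Ndufaf7, an assembly factor of complex I, was lower (-1.97 ± 0.25, adjusted p 1.81e-05, and -1.45). Coq7, of ubiquinone synthesis, was higher by 2.15 ± 0.34 and 1.59, Tspo, an outer membrane protein, by 1.52 ± 0.20 and 1.05, and Lonp1, a matrix protease, by 1.19 ± 0.20 and 1.04. Yy1 was lower (-0.76 ± 0.20, adjusted p 0.0067, and -0.81). Idh2 was higher by 0.92 ± 0.19 and 0.67, and Idh3g, of the NAD-dependent enzyme of the same step, was lower (-0.70 ± 0.17 and -0.66). Post-TBI replicate 4 was the lowest post-TBI array for Coa7 (-1.10, -1.28 and -2.47) and Coq7 (-0.04, -0.36 and -1.70). So it was for Tspo (4.55, 4.62 and 3.79) and Lonp1 (1.16, 1.12 and 0.28). The sizes of these differences rest partly on it. In Ndufaf7 (0.98) and Idh2 (2.53) it lay toward the brain values. Coa7 has 3 probes, and Coq7, Tspo and Ndufaf7 have 2 each. Only the brightest kept probe is given.

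Of 14 genes from a mixed list around the control of respiration, 8 were higher and 4 lower in Arg1+ brain macrophages than in post-TBI blood. Of all genes, 19.9% were higher and 20.0% lower. Acod1, whose product itaconate inhibits succinate dehydrogenase, was higher by 3.70 ± 0.28 (adjusted p 7.15e-08) in Arg1+ and 3.92 ± 0.28 in Arg1- cells. It was well above background on 1 of 3 post-TBI arrays, at -2.99, -4.08 and -3.62, and on all 8 brain arrays, at -0.06 to 0.91, so the size of the difference is uncertain. Egln3, an oxygen-sensing hydroxylase and HIF target, was higher by 5.39 ± 0.39 and 3.53, Hif1a by 2.18 ± 0.27 and 1.63, Pdk1, which blocks pyruvate entry, by 2.03 ± 0.25 and 1.29, and Higd1a by 1.29 ± 0.20 and 0.82. Nos2, whose product nitric oxide inhibits complex IV, was not well above background in post-TBI blood and was at least 7.12-fold higher in Arg1+ cells (adjusted p 1.32e-05). In Arg1- cells the same bound came to 2.08-fold (adjusted p 0.0304). It is uncertain there, because Nos2 was well above background on 2 of 4 Arg1- arrays. The bound takes for each dim array the higher of the probe's own level and the lowest level of any probe well above background, which here was the floor of -4.32. Bnip3 was higher by 1.18 in Arg1+ cells (0.42, adjusted p 0.332, in Arg1- cells), and Trap1 by 0.64 and 0.67. The lower genes were Higd2a (-1.11 and -1.02), an assembly factor of complex IV, Bnip3l (-0.93 and -1.83), a mitophagy receptor, Pdk2 (-0.71 and -0.91), a kinase that blocks pyruvate entry, and Sirt3 (-0.71, and -0.66 with adjusted p 0.0623), a deacetylase that favours respiration. Pdk3 (-0.03 and -0.13) did not pass, and neither did Pdk4, which was well above background on 1 of 4 Arg1+, 0 of 4 Arg1- and 1 of 3 post-TBI arrays and for which no difference is given.

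Between the brain groups 3 of these 14 genes were higher in Arg1+ cells, Egln3 (1.86 ± 0.36, adjusted p 0.00646), Nos2 (1.77 ± 0.33, adjusted p 0.0048) and Bnip3l (0.89 ± 0.23, adjusted p 0.0386). Of all genes, 2.14% were higher there. Nos2 was well above background on 2 of 4 Arg1- arrays, so the size of its difference is uncertain. Of the 20 glycolysis genes 6 were higher, among them Hk3 (1.05 ± 0.27, adjusted p 0.0385) and Pgam1 (0.82 ± 0.18, adjusted p 0.0157), but under quantile normalization, normexp with quantile normalization and the authors' deposited log2 table none was. Of the mitochondrial ribosome genes 1 was higher, and by limma no gene of the cytosolic ribosome, assembly, tricarboxylic acid cycle, biogenesis or carrier lists passed between the brain groups (4, 4, 0, 1 and 3 at an unadjusted p under 0.05), and none of any of the 8 lists passed between post-TBI and normal blood (3, 3, 1, 1, 0, 1, 1 and 1 at an unadjusted p under 0.05 for glycolysis, mitochondrial ribosome, cytosolic ribosome, assembly, tricarboxylic acid cycle, biogenesis, carrier and respiration control genes).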

How the data were processed

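RNA was amplified and hybridised to 14 one-colour Agilent arrays. Per the file headers, the deposited intensity columns are Feature Extraction 10.7.3.1 output, with a background-subtracted processed signal that was not scaled between arrays. The other deposited columns used were 0 or 1 spot flags, per the file headers. A deposited table holds the authors' log2 values, whose normalization is not given in the sources used here and which ranked like the median spot signal within each array; it served as an alternative.

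The processed signal was divided by each array's 75th percentile, raised to at least 0.05 and log2 transformed. Outlier spots were set to missing. Dropped from 41174 probes were 464 with under 2 usable arrays in some group and 13098 that exceeded background on under 3 arrays. The brightest kept probe stood for a gene, which left 21972 genes. Accessions named 24844 probes through a RefSeq table (GRCm38.p6); the array's annotation is on mm9.

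All arrays entered 1 limma 3.58.1 fit (R 4.3.3) on the 4 groups with an intensity trend and 10 residual degrees of freedom. Adjusted p-values are two-sided Benjamini-Hochberg values over all genes per comparison, called under 0.05. The comparisons share arrays and are not independent. On simulated data with 200 genes changed by 1 log2 unit, 37% were recovered between the brain groups and 22.5% to 24.0% in the other comparisons, and 81.5% to 89.0% at 2 units. In the real comparisons with post-TBI blood 8770 and 7334 genes were called, so the cutoff on the unadjusted p was less strict there. The simulated shares therefore do not give the power of those comparisons. The number of arrays limits the precision.

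The members and lists were chosen with earlier results of these data known. Named are, per comparison, up to 8 called members in each direction by size, the highest and lowest of each complex in both comparisons of Arg1+ cells, all Sdh genes, the complex IV isoforms and Ndufa4, up to 4 called genes per context list and all genes of the respiration control list. Other called members are named only to account for a count. A context list of mitochondrially encoded genes had no gene on the array by name and was not analysed here. A marker of red cells is not reported here and was left out of the sum.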

Additional observations from a re-analysis of the deposited data

Results flagged for a closer look

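In the brain groups, which have 4 arrays each, single arrays that stood far from the rest of their group were searched over 54 pairs of a named member and a group, and 4 were found, all among Arg1+ brain macrophages. Chance alone marks about 1 in 20 such groups. Levels are log2 of the processed signal over the 75th percentile of the array. Cox4i2 read -1.67 in replicate 2, where the other 3 arrays read -0.44 to -0.35. Ndufs5 read 3.02 in replicate 3, where the others read 2.20 to 2.32. Ndufs1 read 1.15 in replicate 1, where the others read 1.55 to 1.58. Cox8b read -2.77 in replicate 4, the 1 Arg1+ array on which it was well above background, where the others read -4.32 to -4.07.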

How the results depend on the processing

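Counts of called members and their median difference were recomputed under 27 alternatives. Between Arg1+ and Arg1- brain macrophages the count of 1 became 2 with no filter on dim probes, 2 when a probe had to be above background on every array of a group, 3 with the mean of all kept probes and 2 with the slide as a block (1 higher, 1 lower), and ranged from 0 to 3 when 1 array was left out. Between Arg1+ brain macrophages and post-TBI blood the count of 30 became 16 when only these 2 groups were fitted. It was 17 without Arg1+ replicate 3 and post-TBI replicate 4, where the median was 0.14. Of these, 11 were higher and 6 lower, where 3728 and 4038 of 21972 genes were. The count ranged from 17 to 34 when 1 array was left out. Between Arg1- brain macrophages and post-TBI blood it ranged from 11 to 19, and between post-TBI and normal blood it was 0 each time. No called value changed sign. The share of all genes called also moved with the setting. In Arg1+ brain macrophages against post-TBI blood 19.9% were higher in the main analysis and 11.9% with no filter on dim probes. Counts of members alone therefore do not show an excess or a lack. Replicate numbers did not pair the brain samples (correlations of same-numbered samples -0.05, -0.46, 0.17 and 0.40), and a replicate block gave 1, 0, 28 and 12 called members in the 4 comparisons. In the simulated data, with 200 genes changed and 3 or 4 arrays a group, most differences of 1 log2 unit were not detected. Against post-TBI blood, where many more genes were called, some smaller differences passed, such as that of Sdhc. Others of that size can still have been missed. With the replicate block, Cox7a1 and Atp5b were not called in Arg1- brain macrophages against post-TBI blood.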
